A study of Mus musculus with 6 samples.

Results

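Collagen chain genes were examined in bulk RNA-seq libraries of cultured mouse bone marrow stromal cells, primary cells with the capacity to become osteoblasts or adipocytes. Members were the genes whose symbol in the deposited table is Col, a number, a and a number. The rule found 29 such genes among the 12830 genes of the table. The CKO group held 3 libraries from Prx1;Rras2f/f mice, and the Rras2FF group held 3 libraries from Rras2f/f mice. Both groups carried floxed Rras2 alleles, came from 8-week-old mice and had been under osteogenic induction for 2 days. The Prx1 promoter is active in limb bud mesenchyme, and marrow cultures also hold cells of other origin. Whether each library stands for its own animal is not stated in the labels, and neither are sex and pooling. The p-values are therefore set against the variation among these 6 libraries alone, and part or all of it may be technical.

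Collagens are secreted proteins whose chains wind around each other into a rod-like helix. Fibrillar collagens such as types I, III and V pack into the fibres that give bone matrix its strength, and fibril-associated collagens coat those fibres. Type IV chains form the sheet of basement membranes, type VI chains form beaded filaments around cells, types VIII and X build networks, and transmembrane collagens stay anchored in the cell surface. Osteoblasts, the cells that differentiation in these cultures leads toward, are known for making type I collagen in bulk.

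The promoter windows of 3 chains that were lower in CKO and of 1 that did not pass the test are shown, picked with those results known, because they differ in base composition and none of them overlaps an annotated exon. Each is the 250 bases before the RefSeq start of the gene in GRCm38.p6, read 5′ to 3′ on the strand of the gene. Capitals mark a GC box (GGGCGG, or CCGCCC on the other strand) or a TATA box (TATAAA). The windows are chr2:27886175-27886424 on the plus strand for Col5a1, chr1:90843972-90844221 on the minus strand for Col6a3, chr16:57754738-57754987 on the minus strand for Col8a1 and chr1:45311288-45311537 on the plus strand for Col3a1.
Col5a1: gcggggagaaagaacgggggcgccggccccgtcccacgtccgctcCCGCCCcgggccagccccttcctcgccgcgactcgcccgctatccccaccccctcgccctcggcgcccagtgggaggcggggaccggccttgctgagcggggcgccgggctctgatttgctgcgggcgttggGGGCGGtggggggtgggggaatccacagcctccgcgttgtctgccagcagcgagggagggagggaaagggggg
Col6a3: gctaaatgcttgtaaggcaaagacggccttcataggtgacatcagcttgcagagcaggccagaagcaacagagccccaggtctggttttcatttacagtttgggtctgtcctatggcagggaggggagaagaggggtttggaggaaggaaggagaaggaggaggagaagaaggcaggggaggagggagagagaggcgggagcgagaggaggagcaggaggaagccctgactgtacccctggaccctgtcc
Col8a1: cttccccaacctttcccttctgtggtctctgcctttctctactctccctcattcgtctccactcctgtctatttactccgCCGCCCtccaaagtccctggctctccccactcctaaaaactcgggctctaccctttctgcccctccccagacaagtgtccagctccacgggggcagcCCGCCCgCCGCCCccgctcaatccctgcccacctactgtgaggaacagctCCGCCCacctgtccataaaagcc
Col3a1: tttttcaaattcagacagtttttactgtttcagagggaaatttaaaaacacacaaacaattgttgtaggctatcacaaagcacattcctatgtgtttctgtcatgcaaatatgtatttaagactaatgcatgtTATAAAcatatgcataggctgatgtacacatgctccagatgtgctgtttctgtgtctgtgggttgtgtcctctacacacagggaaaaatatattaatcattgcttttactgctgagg
The Col5a1 window held 2 GC boxes at a GC content of 76.4%, and the Col8a1 window held 4 at 60.8%. The Col6a3 window, at 57.2%, held 0 GC boxes and 0 TATA boxes. The Col3a1 window, at 35.2%, held 1 TATA box and 0 GC boxes. RefSeq promoter windows were found for 24 of the 29 members. A GC box stood in at least 1 window of 6 of the 7 members lower in CKO and of 9 of the 17 other members, against 32.74% of all 32851 promoter windows. A CCAAT box (CCAAT, or ATTGG on the other strand) stood in 2 of the 7 and 7 of the 17, against 33.85% of all windows. A TATA box (TATAAA, or TTTATA on the other strand) stood in 0 of the 7 and 4 of the 17, against 12.37% of all windows. These matches describe letters in a window and do not mark binding sites.

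The targeted gene, Rras2, which encodes a small GTPase, had 26.7, 29.0 and 26.8 CPM in the CKO libraries, against 49.7, 50.1 and 44.7 CPM in the Rras2FF libraries. CPM are counts scaled to a common library size after TMM scaling, a correction for library composition. Every library carried counts of the listed genes summing to between 31934714 and 37561452. Of 10 stromal cell markers, all 10 were in the table, among them Prrx1, Pdgfra, Pdgfrb and Cxcl12. Markers of macrophages were also present, with Lyz2 at 17134 ± 268 CPM in CKO and 15801 ± 654 CPM in Rras2FF (SD, n = 3 each). Every row of the table had at least 1 CPM in at least 3 libraries, so collagen genes below that level are not analysed here. Of 44 collagen chain genes in a textbook list of classes, the 15 without a row included Col14a1, the 3 type IX chains and Col17a1.

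The chains lower in CKO were Col1a1, Col1a2, Col5a1, Col5a2, Col11a1, Col12a1, Col8a1, Col8a2, Col6a2 and Col6a3. Of the 29 members 10 fell, 0 rose and 19 did not pass the test, edgeR's quasi-likelihood F test with a threshold of 0.05 on the p-value adjusted over all 12830 genes by Benjamini and Hochberg's method. Over all listed genes 4.84% were called, 2.74% lower and 2.1% higher. Log2 fold changes, given as CKO over Rras2FF, were negative for 27 of the 29 members, against 49.8% of all genes. Their median was -0.27, beside 0.00058 over all genes. None of the 2 members with a positive fold change had an unadjusted p below 0.05, and DESeq2 and limma-voom also called 0 higher. Every CKO library was below every Rras2FF library for 16 of the 29, and this held for 11.2% of all genes. Both the 27 and the 16 include Col13a1, which owes its row to the Rras2FF libraries and so could hardly have counted otherwise. By the adjusted p of the authors' deposited table, 14 of the 29 were lower, against 3.85% of all genes there lower and 6.61% called in either direction. The DESeq2 fit used here gave nearly the same values, such as a Col1a1 log2 fold change of -0.589 in both. The authors' calls and those of DESeq2 are therefore not separate results. The count of 10 became 6 without Rras2FF replicate 2, where 1.25% of all genes were called lower. It became 15 without CKO replicate 1, where 4.92% of all genes were called lower. In bulk samples fewer cells of a type and less RNA per cell cannot be told apart.

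**Figure D1:**
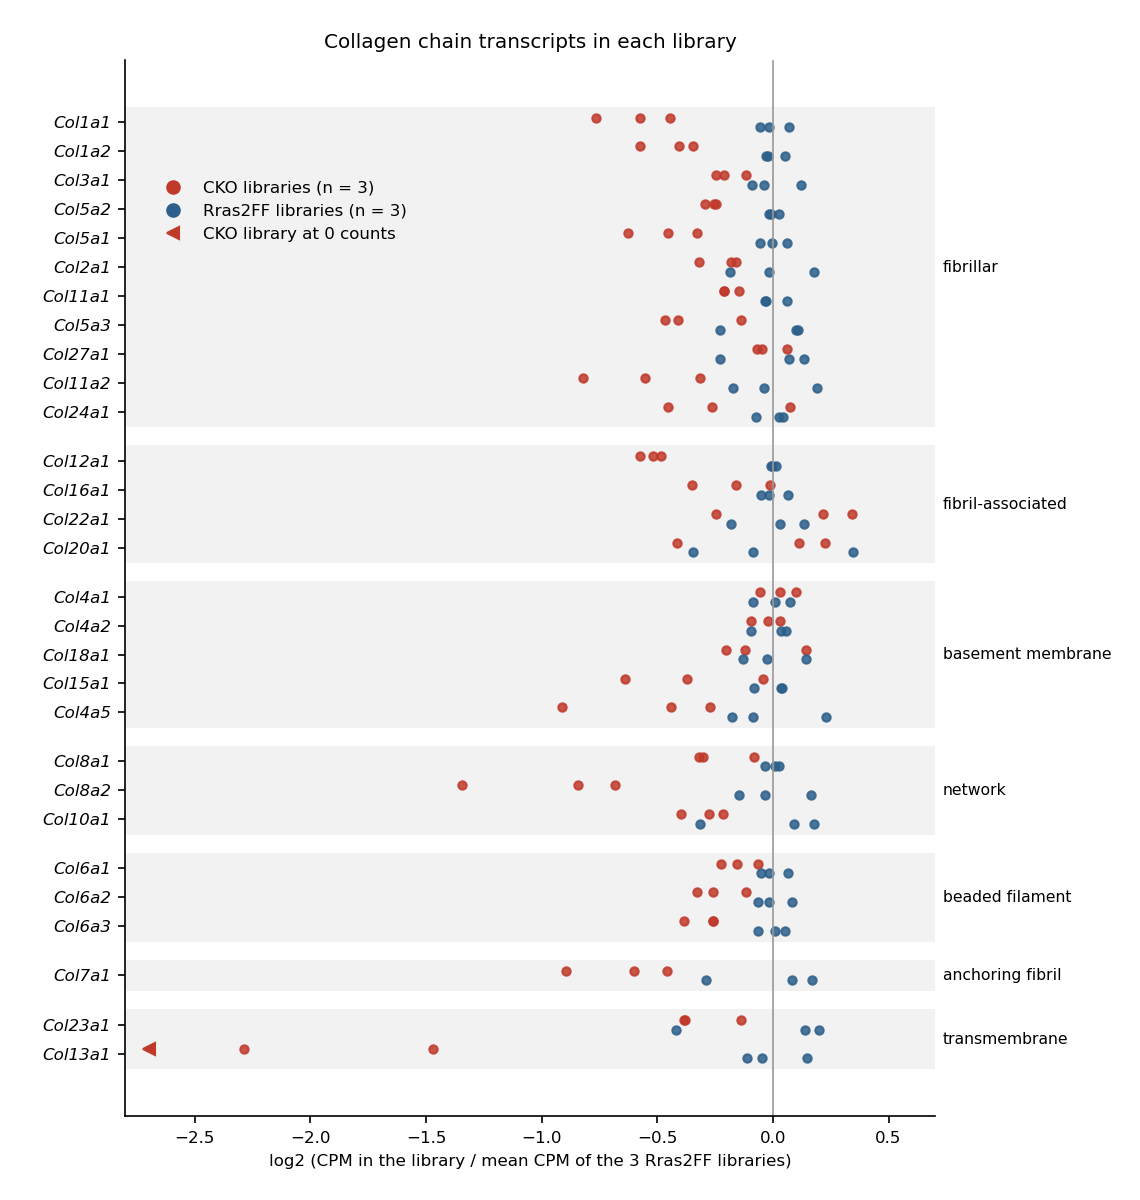
Each point is 1 library, placed by the log2 of its CPM over the mean CPM of the 3 Rras2FF libraries, with CKO above Rras2FF in each gene's row and genes grouped by class. Col1a1, Col1a2, Col5a1, Col5a2 and Col12a1 show CKO points clear of the Rras2FF points, the Col4a1 and Col4a2 points intermix, and the triangle marks the CKO library with 0 Col13a1 counts.

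The fall was visible in the makeup of the libraries. Collagen chains took 2.08%, 2.00% and 1.80% of the listed counts in the CKO libraries, against 2.66%, 2.60% and 2.53% in the Rras2FF libraries. The groups did not overlap. Fibrillar chains alone took 1.42% ± 0.116 in CKO and 1.95% ± 0.0550 in Rras2FF (SD, n = 3 each). Beaded filament chains took 0.280% ± 0.0166 in CKO and 0.325% ± 0.0113 in Rras2FF, and fibril-associated chains 0.110% ± 0.00418 in CKO and 0.156% ± 0.000419 in Rras2FF. Network chains took 0.0799% ± 0.00760 in CKO and 0.0946% ± 0.00242 in Rras2FF. Basement membrane chains took 0.0716% ± 0.00455 in CKO and 0.0727% ± 0.00423 in Rras2FF, and here the groups overlapped. These sums follow the most abundant chains of a class, such as Col1a1 and Col1a2, Col12a1 or Col8a1, and do not describe every chain. The class medians of the log2 fold change were -0.27 for fibrillar, -0.23 for beaded filament and -0.084 for fibril-associated chains. They were -0.29 for network and -0.052 for basement membrane chains. Shares carry no test, because a sum over chosen genes gets none here. With 3 against 3 libraries an exact permutation test cannot go below p = 0.10.

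**Figure D2:**
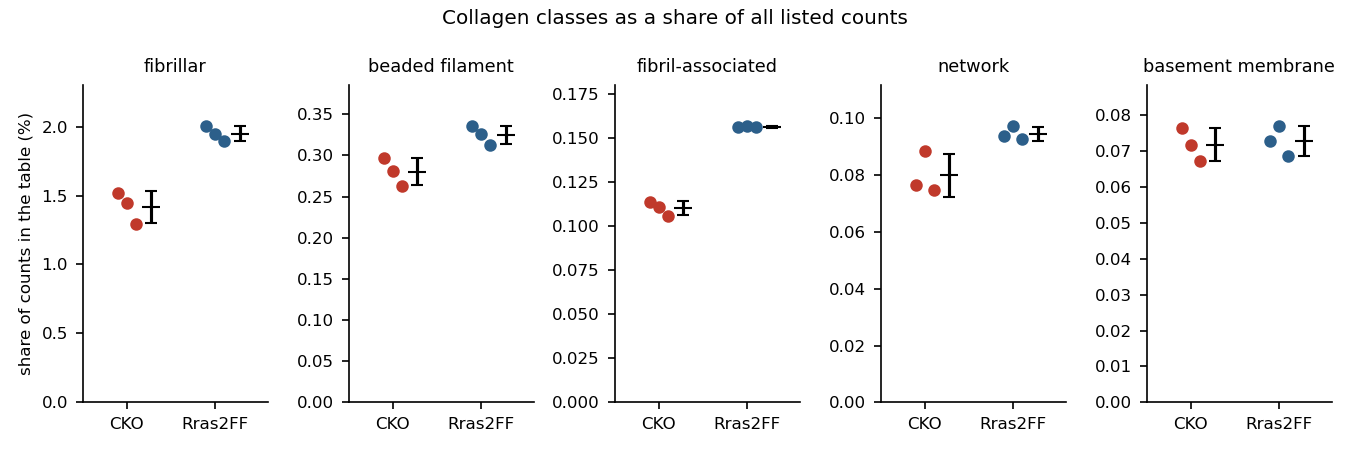
Points are the percent of all listed counts that fell on a collagen class in each library, CKO left of Rras2FF, with the mean and SD beside them, on axes that start at 0 and differ between panels. Fibrillar, beaded filament, fibril-associated and network shares are separate between the groups, and basement membrane shares of 0.0716% in CKO and 0.0727% in Rras2FF overlap. Most fibril-associated counts are from Col12a1 and most network counts from Col8a1.

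Type I collagen is the main fibre of bone. Its Col1a1 chain took 26.6% of the summed collagen FPKM in CKO and 30.5% in Rras2FF. On the FPKM scale, which divides counts by gene length and library size, Col1a1 stood at 831 ± 97.2 in CKO and 1259 ± 36.9 in Rras2FF (SD, n = 3 each), and Col1a2 at 844 ± 69.0 in CKO and 1154 ± 17.5 in Rras2FF. Together with the next chain by level, Col6a1 at 267 ± 16.7 FPKM in CKO and 298 ± 7.97 FPKM in Rras2FF, they were the most abundant members in Rras2FF per length. Col1a1, on chromosome 11 from 94936224 to 94953042 of mm10, had 5997, 5477 and 4808 CPM in the CKO libraries, against 8563, 8070 and 7844 CPM in the Rras2FF libraries. All CKO values lay below all Rras2FF values. The log2 fold change of Col1a1 was -0.59 (SE 0.0733, edgeR adjusted p = 0.000584), which is 33.5% lower. Col1a2, on chromosome 6 from 4504814 to 4541544, had 5278, 5063 and 4504 CPM in the CKO libraries, against 6966, 6614 and 6571 CPM in the Rras2FF libraries. Col1a2 fell by 0.44 on the log2 scale (SE 0.0615, edgeR adjusted p = 0.000734). In both genes CKO replicate 3 was the lowest library, as it was for 21 of the 29 members, and Rras2FF replicate 1 was the highest, as it was for 17.

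Type V collagen sets the diameter of type I fibrils by being buried inside them. Col5a1 had 795, 728 and 645 CPM in the CKO libraries, against 1039, 993 and 959 CPM in the Rras2FF libraries, and fell by 0.46 on the log2 scale (SE 0.0687, edgeR adjusted p = 0.00277). Its exons overlap 2 annotated transcripts on the opposite strand, and the sources used here do not give the strand setting of the counting. Col5a2 had 1286, 1294 and 1254 CPM in the CKO libraries, against 1564, 1526 and 1517 CPM in the Rras2FF libraries. The groups were separate for both chains, and Col5a2 fell by 0.27 (SE 0.0441, edgeR adjusted p = 0.00277). The rarer chain Col5a3 had 37.4, 30.9 and 29.7 CPM in the CKO libraries, against 44.2, 44.0 and 35.0 CPM in the Rras2FF libraries, and its groups overlapped. Its log2 fold change was -0.33 (SE 0.114, edgeR adjusted p = 0.171), and Col5a3 passed without CKO replicate 1 and without Rras2FF replicate 3 (adjusted p = 0.0201 and 0.0306). It also passed in DESeq2 (adjusted p = 0.0255).

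Type III collagen, which accompanies type I in soft and healing tissue, did not pass the test. Col3a1 had 1400, 1492 and 1367 CPM in the CKO libraries, against 1762, 1575 and 1521 CPM in the Rras2FF libraries. Its groups did not overlap, but CKO replicate 2 lay close to Rras2FF replicate 3. Its log2 fold change was -0.19 with a 95% interval of -0.30 to -0.076 (edgeR adjusted p = 0.0880), where the intervals here come from the standard error and are not adjusted for the number of genes. In DESeq2 its adjusted p was 0.0135. Col3a1 and Col5a2 are neighbours on chromosome 1, transcribed toward each other with 24614 bases between them.

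The other fibrillar chains include several best known from cartilage. Col11a1, which nucleates cartilage fibrils, had 72.8, 76.3 and 72.8 CPM in the CKO libraries, against 88.1, 82.7 and 82.4 CPM in the Rras2FF libraries. It fell by 0.19 on the log2 scale (SE 0.0503, edgeR adjusted p = 0.0449). That call ended without CKO replicate 2, without CKO replicate 3 and without Rras2FF replicate 1, 2 or 3 (adjusted p = 0.0784, 0.177, 0.161, 0.139 and 0.0968). Col2a1, the main cartilage collagen, had 267, 263 and 240 CPM in the CKO libraries, against 263, 338 and 295 CPM in the Rras2FF libraries, and the groups overlapped. Its edgeR adjusted p was 0.309, which became 0.0237 without Rras2FF replicate 1. In DESeq2 its adjusted p was 0.0460. Per length Col2a1 ranked 11 among the members in Rras2FF, at 54.2 ± 7.55 FPKM, against 46.4 ± 3.04 FPKM in CKO. Of 10 chondrocyte markers only Sox9 and Comp had a row, and Acan, Matn1, Matn3 and Hapln1 did not. Comp, a cartilage matrix protein, had 14.7 ± 4.33 CPM in CKO and 30.9 ± 3.55 CPM in Rras2FF (edgeR adjusted p = 0.102). Col11a2 did not pass, at a log2 fold change of -0.55 (adjusted p = 0.0599 in edgeR). It passed without CKO replicate 1 (adjusted p = 0.0161) and in DESeq2 (adjusted p = 0.0273). Col27a1 and Col24a1 had log2 fold changes of -0.017 and -0.20, and their groups overlapped.

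Of the 4 fibril-associated chains with a row, 1 fell. Col12a1, which coats type I fibrils in bone and tendon, had 1066, 1042 and 1002 CPM in the CKO libraries, against 1506, 1485 and 1482 CPM in the Rras2FF libraries. The libraries of each group lay close together and the groups were well apart. It fell by 0.52 on the log2 scale (SE 0.0451, edgeR adjusted p = 1.27e-05), the smallest adjusted p of the 29 members. Col16a1 had 62.7 ± 7.25 CPM in CKO and 70.4 ± 3.01 CPM in Rras2FF (SD, n = 3 each; edgeR adjusted p = 0.273), and passed without CKO replicate 1 (adjusted p = 0.0246). Col22a1 and Col20a1 averaged between 1.34 and 2.35 CPM in each group. Their 95% intervals of the log2 fold change, -0.33 to 0.58 and -0.57 to 0.57, were wide enough to leave changes of moderate size in either direction undetectable in these libraries.

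Type VI collagen forms filaments from 3 different chains in each unit, and its 3 chains with a row all had CKO below Rras2FF. Col6a3 had 763, 764 and 699 CPM in the CKO libraries, against 947, 920 and 874 CPM in the Rras2FF libraries, and fell by 0.30 on the log2 scale (SE 0.0505, edgeR adjusted p = 0.00285). Col6a2 had 924, 836 and 798 CPM in the CKO libraries, against 1059, 989 and 957 CPM in the Rras2FF libraries, and fell by 0.23 (SE 0.0584, edgeR adjusted p = 0.0355). The call of Col6a2 ended without CKO replicate 2, without CKO replicate 3 and without Rras2FF replicate 1, 2 or 3 (adjusted p = 0.158, 0.158, 0.137, 0.127 and 0.0545). Col6a1 had 1277, 1199 and 1143 CPM in the CKO libraries, against 1396, 1319 and 1286 CPM in the Rras2FF libraries. The groups were separate but close, and it did not pass (log2 fold change -0.14, edgeR adjusted p = 0.155). Without CKO replicate 1 its adjusted p was 0.0198. Col6a1 and Col6a2 lie 85161 bases apart on chromosome 10, on the same strand.

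Network collagens of type VIII line vessels and the cornea and are also made by mesenchymal cells. Col8a2, on chromosome 4 from 126286793 to 126314330, had 14.7, 13.1 and 9.25 CPM in the CKO libraries, against 21.2, 26.3 and 23.0 CPM in the Rras2FF libraries. It had the most negative log2 fold change of the members called, -0.93 (SE 0.170, edgeR adjusted p = 0.0242), and every CKO library was below every Rras2FF library. Its call ended without CKO replicate 2, Rras2FF replicate 2 or Rras2FF replicate 3 (adjusted p = 0.108, 0.0685 and 0.0868). Its partner chain Col8a1 was far more abundant per length, at 138 ± 13.5 FPKM in CKO and 164 ± 4.18 FPKM in Rras2FF, while Col8a2 had 2.62 ± 0.622 FPKM in CKO and 4.97 ± 0.627 FPKM in Rras2FF (SD, n = 3 each). Col8a1 had 741, 863 and 732 CPM in the CKO libraries, against 919, 929 and 892 CPM in the Rras2FF libraries, with CKO replicate 2 close to the Rras2FF range. It fell by 0.23 on the log2 scale (SE 0.0594, edgeR adjusted p = 0.0418), a call that was kept without CKO replicate 2 and ended without any other library (adjusted p = 0.0893 and 0.174 without CKO replicates 1 and 3, and 0.115, 0.192 and 0.0932 without Rras2FF replicates 1, 2 and 3). Col10a1, the marker of hypertrophic cartilage, had 7.31 ± 0.468 CPM in CKO and 8.96 ± 1.55 CPM in Rras2FF (edgeR adjusted p = 0.293).

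**Figure D3:**
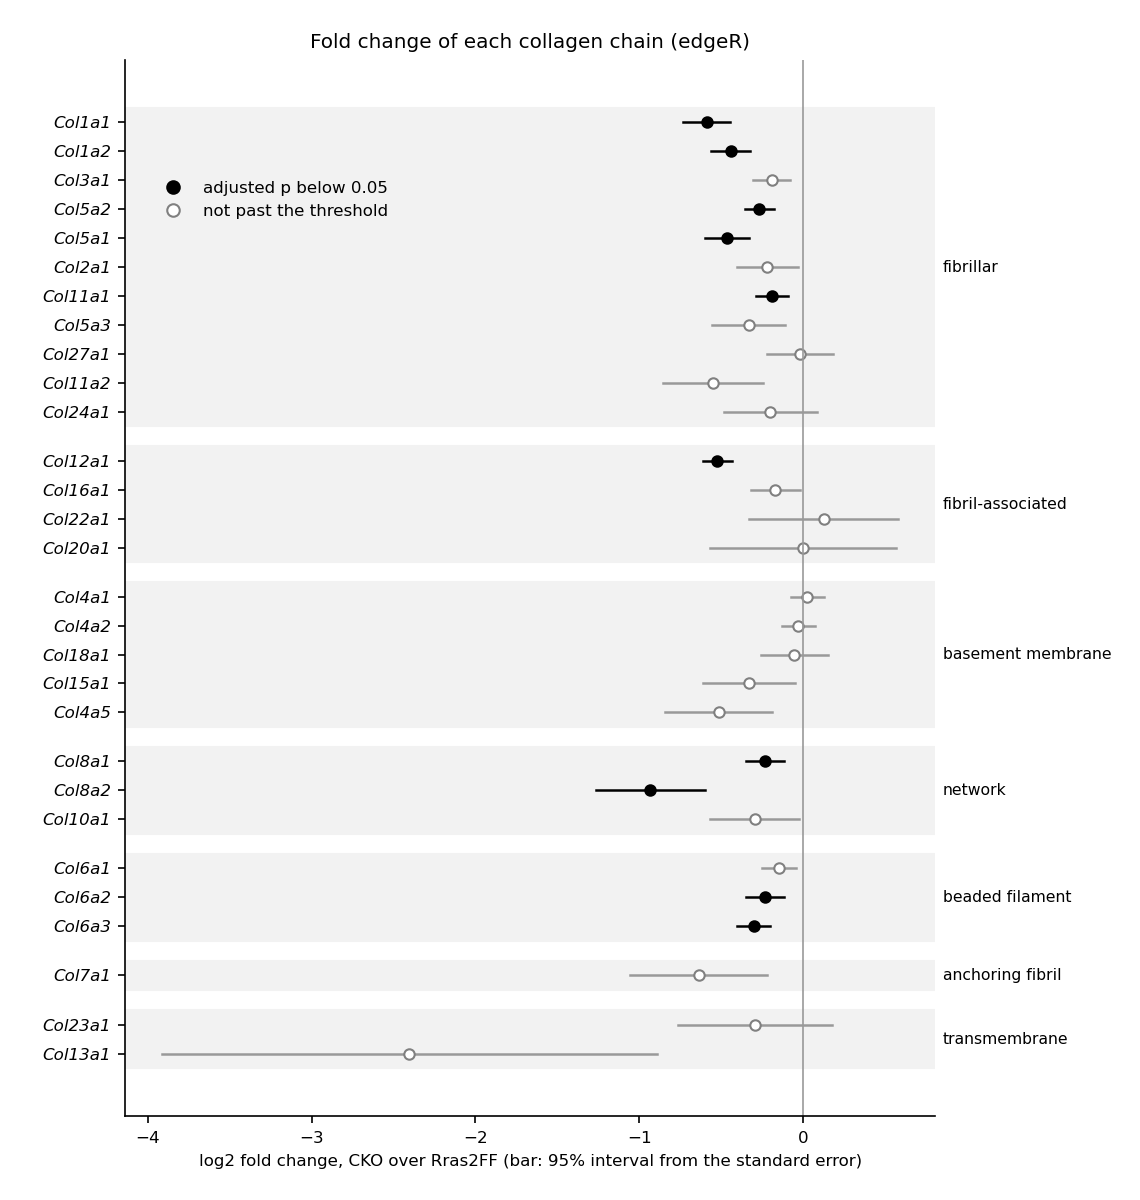
Points are the log2 fold change of each member, CKO over Rras2FF, with a 95% interval from the standard error, filled where the edgeR adjusted p was below 0.05. The 10 filled points are all left of 0, and the intervals of Col4a1 and Col4a2 are narrow and span 0.

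Of the 5 basement membrane chains 0 were called in edgeR, DESeq2 or limma-voom, and 1, Col4a5, had an unadjusted p below 0.05. With the replicate number as a block, Col4a5 was called lower (adjusted p = 0.0402). Col4a1 had 370, 353 and 333 CPM in the CKO libraries, against 348, 363 and 326 CPM in the Rras2FF libraries. Col4a2 had 271, 261 and 248 CPM in the CKO libraries, against 272, 276 and 248 CPM in the Rras2FF libraries. The groups intermixed for both chains. The log2 fold change of Col4a1 was 0.027 with a 95% interval of -0.075 to 0.13, and that of Col4a2 was -0.027 with an interval of -0.13 to 0.071, so falls of the size seen for Col1a1 lie outside both intervals. The 2 genes stand head to head on chromosome 8, and their annotated starts overlap by 22 bases at chr8:11312805-11312826. The stretch lies in both genes, on opposite strands, and is shown as read on the plus strand, without motifs marked.
Col4a1 and Col4a2: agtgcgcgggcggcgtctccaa
Col18a1, whose end fragment is endostatin, had 71.1 ± 9.13 CPM in CKO and 73.7 ± 7.07 CPM in Rras2FF. Col15a1, its relative in basement membrane zones, had 26.5 ± 5.53 CPM in CKO and 33.3 ± 1.56 CPM in Rras2FF (edgeR adjusted p = 0.305), and passed without CKO replicate 1 (adjusted p = 0.00165). Col4a5, an X-linked chain, had 7.27, 4.67 and 6.47 CPM in the CKO libraries, against 10.3, 7.76 and 8.26 CPM in the Rras2FF libraries (edgeR adjusted p = 0.115), and passed without CKO replicate 1 (adjusted p = 0.0312). Endothelial cells are a known source of basement membrane collagens, and 9 of 10 endothelial markers had a row. Their summed level was 35.6 to 45.1 CPM in CKO and 39.8 to 55.2 CPM in Rras2FF, with 0 of the 9 called and a median log2 fold change of -0.46. Egfl7, Emcn and Erg had every CKO library below every Rras2FF library, as did 11.2% of all genes. Their edgeR adjusted p-values were 0.218, 0.231 and 0.259. Esam had every CKO library above every Rras2FF library, as did 11.3% of all genes (edgeR adjusted p = 0.679). Each of these markers averaged under 10 CPM in both groups. The part of endothelial cells in the basement membrane values was not tested.

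The remaining classes held rare transcripts, and 0 of their 3 members were called in edgeR, DESeq2 or limma-voom, while 2, Col7a1 and Col13a1, had an unadjusted p below 0.05. Col7a1, the anchoring fibril of skin, had 2.19, 2.42 and 1.79 CPM in the CKO libraries, against 3.73, 2.72 and 3.52 CPM in the Rras2FF libraries (log2 fold change -0.64, edgeR adjusted p = 0.123). Col13a1, a transmembrane collagen, had 25, 14 and 0 counts in CKO replicates 1, 2 and 3, against 66, 69 and 70 counts in the Rras2FF libraries. The count of 0 allows a level of up to 0.0826 CPM in that library, a limit that covers counting error only. Col13a1 did not pass (log2 fold change -2.40, SE 0.771, edgeR adjusted p = 0.182), and its adjusted p was 0.00962 without CKO replicate 3. It was the 1 member under 1 CPM in a CKO library and owes its row to the Rras2FF libraries, so its lower level in CKO is not independent of its being listed. Col23a1, also transmembrane, had 2.08, 1.76 and 1.76 CPM in the CKO libraries, against 2.63, 1.72 and 2.52 CPM in the Rras2FF libraries, with overlapping groups.

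Ratios between chains within a library do not depend on library scaling. They are described without a test. The FPKM ratio of Col1a1 to Col1a2 was 1.02, 0.975 and 0.951 in the CKO libraries, against 1.11, 1.09 and 1.08 in the Rras2FF libraries. Type I collagen is normally assembled from more Col1a1 than Col1a2 protein, and transcript ratios do not measure protein. The ratio of Col3a1 to Col1a1 was 0.249, 0.290 and 0.303 in the CKO libraries, against 0.219, 0.208 and 0.207 in the Rras2FF libraries. The ratio of Col4a1 to Col1a1 was 0.0584 ± 0.00343 in CKO and 0.0380 ± 0.00209 in Rras2FF (SD, n = 3 each), and that of Col6a1 to Col1a1 was 0.323 ± 0.0188 in CKO and 0.236 ± 0.000610 in Rras2FF. The ratio of Col5a1 to Col5a2 was 0.502 ± 0.0431 in CKO and 0.568 ± 0.0134 in Rras2FF. Of the 11 ratios computed, 10 had groups that did not overlap, and Col12a1 to Col1a1 was the exception, at 0.10 ± 0.00784 in CKO and 0.0954 ± 0.00348 in Rras2FF. Ratios that share Col1a1 are not independent of each other, and because Col1a1 fell, chains that fell less have a higher ratio to it in CKO. The share of other gene pairs without overlap was not computed, so the count of 10 is a description only.

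**Figure D4:**
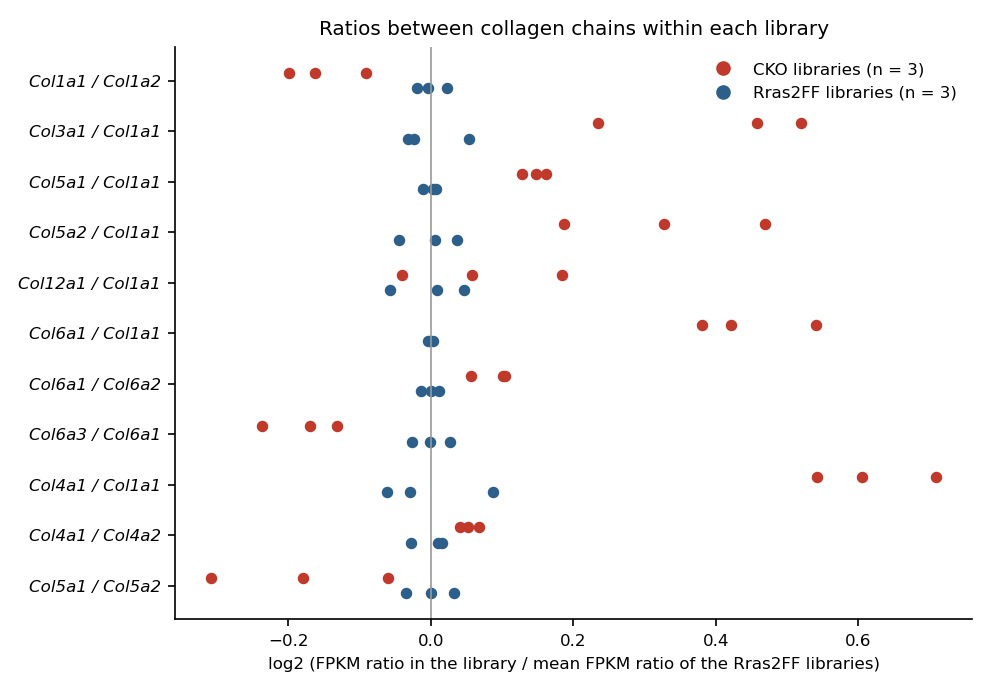
Each point is the FPKM ratio of a pair of chains in 1 library, as log2 over the mean ratio of the Rras2FF libraries, with CKO above Rras2FF in each row. Ratios of Col3a1, Col5a2, Col6a1 and Col4a1 to Col1a1 lie to the right in CKO, those of Col1a1 to Col1a2, Col6a3 to Col6a1 and Col5a1 to Col5a2 lie to the left, and those of Col12a1 to Col1a1 overlap.

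Calls were also counted by abundance. Of the 6 members with a mean above 1000 CPM 4 fell. Of all 82 listed genes at that level 8 fell, and these 8 include the 4 members. Of 7 members between 100 and 1000 CPM 4 fell, of 7 between 10 and 100 CPM 2 fell, and of 9 under 10 CPM 0 fell. Over the table, members included, the shares called lower were 4.30%, 2.45% and 2.18% in those bands. Among the 13 members with at least 100 CPM in Rras2FF, a limit chosen after the values were seen, Pearson's r between log2 level and log2 fold change was -0.75 and Spearman's rho -0.59. Over all 29 members they were 0.19 and -0.025. These points share the same 6 libraries. The level is the Rras2FF mean, and the same Rras2FF values enter the fold change with the opposite sign. This alone pulls the correlations toward negative values, so no conclusion is drawn from them.

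**Figure D5:**
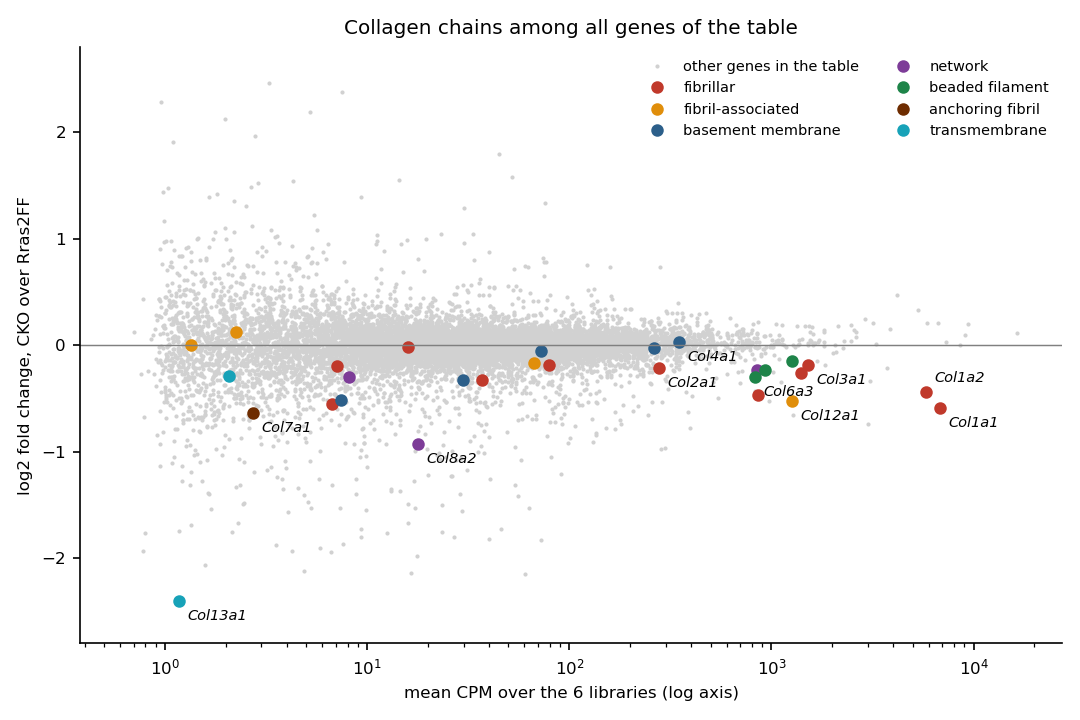
Each point is a gene, placed by its mean CPM over the 6 libraries on a log axis and its log2 fold change, CKO over Rras2FF, with collagen chains coloured by class and 15 genes beyond the vertical axis not drawn. Col1a1, Col1a2 and Col12a1 sit below most genes of like level, and Col4a1 and Col4a2 sit near 0.

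Genes that act on collagen chains were counted beside the chains. Over all listed genes 2.74% were called lower and 2.1% higher. Of 31 listed folding, modification and crosslinking genes 9 fell and 1 rose, with a median log2 fold change of -0.13. P3h1, a prolyl hydroxylase of the collagen helix, fell by 0.38, Fkbp10, a collagen chaperone, by 0.36, and Serpinh1, the collagen chaperone HSP47, by 0.26 on the log2 scale (edgeR adjusted p = 0.000656, 0.000817 and 0.00440). P3h2, a prolyl hydroxylase that prefers type IV collagen, had 7.94 ± 0.375 CPM in CKO and 4.53 ± 0.273 CPM in Rras2FF and rose (log2 fold change 0.81, edgeR adjusted p = 0.00242). Of 12 collagen receptors 2 fell, Itga10, an integrin chain, by 0.90 and Ddr2, a receptor kinase for fibrillar collagen, by 0.24 (edgeR adjusted p = 4.56e-05 and 0.00870). The call of Ddr2 ended without CKO replicate 2 and without Rras2FF replicates 2 and 3 (adjusted p = 0.0566, 0.0702 and 0.0526). Of 9 collagen-cleaving proteases 2 fell. Mmp16 fell by 0.95 (edgeR adjusted p = 0.00917, and 0.0649 without Rras2FF replicate 2). Mmp2 fell by 0.18 (edgeR adjusted p = 0.0459), a call that ended without CKO replicates 2 and 3 and without Rras2FF replicates 1, 2 and 3 (adjusted p = 0.0945, 0.218, 0.171, 0.185 and 0.0781).

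Markers of the cell types a marrow culture can hold are given for the whole of each list, beside 2.74% of all genes called lower and 2.1% higher. The 10 osteoblast markers summed to 3924, 3783 and 3550 CPM in the CKO libraries, against 4697, 4545 and 4400 CPM in the Rras2FF libraries, with no overlap between the groups. Of the 9 markers reported singly 1 was called and 8 did not pass. Alpl, Ibsp, Sp7, Bglap, Bglap2 and Dmp1 had every CKO library below every Rras2FF library, as did 11.2% of all genes. Their log2 fold changes were -0.66, -0.43, -0.70, -1.87, -1.34 and -0.57 (edgeR adjusted p = 0.117, 0.0886, 0.158, 0.116, 0.347 and 0.181). Phex overlapped, at -0.099. Spp1, the most abundant in CKO, went the other way, with 1675 ± 134 CPM in CKO and 1491 ± 90.5 CPM in Rras2FF (edgeR adjusted p = 0.171). Runx2, a transcription factor of osteoblast differentiation, fell by 0.25 on the log2 scale (edgeR adjusted p = 0.0128). The Runx2 call ended without CKO replicates 2 and 3 and without Rras2FF replicate 3 (adjusted p = 0.0538, 0.0632 and 0.0740). The 10 macrophage and osteoclast markers summed to 22228 to 22922 CPM in CKO and 20358 to 21778 CPM in Rras2FF, with 1 higher, Tyrobp, and 1 lower, Cd14 (edgeR adjusted p = 0.0110 and 0.0198). The Tyrobp call ended without CKO replicates 2 and 3 and without Rras2FF replicate 2 (adjusted p = 0.0615, 0.0568 and 0.0976). The Cd14 call ended without CKO replicate 2 and without Rras2FF replicates 1, 2 and 3 (adjusted p = 0.0784, 0.0778, 0.0704 and 0.0924). The 10 stromal markers summed to 5476 to 5805 CPM in CKO and 4267 to 4427 CPM in Rras2FF, with 2 higher, Cxcl12 and Lepr. Cxcl12 alone had 4838 ± 178 CPM in CKO and 3483 ± 98.8 CPM in Rras2FF and carried most of that sum, while the median log2 fold change of the list was 0.028. Prrx1, a transcription factor of limb mesenchyme, had 223 ± 11.7 CPM in CKO and 246 ± 4.95 CPM in Rras2FF, and Pdgfra had 98.7 ± 3.21 CPM in CKO and 101 ± 3.0 CPM in Rras2FF, neither past the test. Adipocyte markers summed to 3410 to 3544 CPM in CKO and 3062 to 3221 CPM in Rras2FF, with 2 of 7 higher, Adipoq and Cd36. Pericyte and smooth muscle markers summed to 2460 to 2831 CPM in CKO and 2430 to 2698 CPM in Rras2FF, with 0 of 8 called. Plasma and B cell markers summed to 414 to 487 CPM in CKO and 304 to 322 CPM in Rras2FF, with 3 of 5 higher, Igkc, Jchain and Ighm. The Ighm call ended without CKO replicate 2 and without Rras2FF replicates 1, 2 and 3 (adjusted p = 0.0883, 0.0626, 0.10 and 0.0757). Their part in the collagen differences was not tested.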

How the data were processed

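Counts per gene and library were deposited by the authors as raw whole numbers, and FPKM values, scaled by gene length and library size, were deposited beside them, per the file headers. The authors' deposited table also holds log2 fold changes and p-values of their own comparison. Per the submitters' processing notes, reads were placed on build mm10. The sources used here do not give the aligner, counter or strand setting. Library totals ran from 31934714 to 37561452 counts. CKO was compared with Rras2FF, 3 libraries each, by edgeR 4.0.16 (TMM, quasi-likelihood F test, robust) in R 4.3.3, with Benjamini-Hochberg adjustment over 12830 genes and a threshold of 0.05. The low-count filter removed 0 genes. The standard error is the absolute log2 fold change over the square root of F. The procedure was tested on simulated data. DESeq2 1.42.0, limma-voom (limma 3.58.1), other scalings and filters, a replicate block and leaving out each library were alternatives. Members and lists were chosen with earlier results of these data known. Values per library are given for called members, types I, III and IV and the highest member of each class; from other lists up to 4 called genes are named by smallest p. Comp, Lyz2, Prrx1, Pdgfra, Spp1, Alpl, Ibsp, Sp7, Bglap, Bglap2, Dmp1, Phex, Egfl7, Emcn, Erg, Esam, Col2a1, Col5a3 and Col13a1 were added after their values were seen. Positions are from GENCODE M21 on GRCm38 and promoter sequences from RefSeq on GRCm38.p6. The result of 1 osteoblast marker is not reported here.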

Additional observations from a re-analysis of the deposited data

How the results depend on the processing

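Under RLE, upper-quartile and total-count scaling and scaling without collagen genes, the same 10 chains were lower. The low-count filter removed 0 genes and every row passes 1 CPM in 3 libraries. Fits with no filter or a 1 CPM filter therefore only repeat the main fit. DESeq2, whose values nearly match those of the authors' deposited table, called 14 lower, against 3.85% of all genes. Col2a1, Col3a1, Col5a3 and Col11a2 were gained there. In limma-voom 7 were lower, against 2.00% of all genes, with Col11a1, Col6a2 and Col8a1 lost. Under every alternative run 0 were higher. Leaving out 1 library gave 6 to 15 lower, while the share of all genes called lower ran from 1.25% to 4.92%. Col1a1, Col1a2, Col5a1, Col5a2, Col12a1 and Col6a3, 6 chains, kept the call each time. Leaving out 1 library moved class medians of the log2 fold change, which ranged from -0.16 to 0.0027 for fibril-associated, -0.16 to 0.0052 for basement membrane, -0.43 to -0.23 for network and -1.83 to -1.03 for transmembrane chains, the last also -1.95 in limma-voom. The transmembrane median rests on 2 chains, and 1 of them, Col13a1, owes its row to the Rras2FF libraries. Over single chains and alternatives 397 results stayed on the same side of the threshold, 16 gained a call, 22 lost one and 0 reversed. The 397 include the filter settings, which could not differ from the main fit. On summed FPKM the CKO minus Rras2FF share was -0.273 percentage points for all collagens, -0.229 fibrillar, -0.0104 fibril-associated, -0.00785 network and -0.0246 beaded filament. It was -3.13e-05 anchoring fibril, -0.000141 transmembrane and -0.00112 basement membrane, and in the last class the groups overlapped. The log2 difference of the Col5a1 to Col1a1 ratio was 0.12 on counts and 0.15 on FPKM. Replicate numbers did not pair the libraries (correlation of same-numbered deviations -0.036, 0.067 and -0.13, and not every library correlated best with its own number). A replicate block gave 12 lower, against 3.02% of all genes, with Col11a2, Col4a5 and Col5a3 gained and Col11a1 lost. The causes of these shifts were not tested.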
